A study of Mus musculus with 36 samples.

Results

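The 10 genes described here, Apoe, Lpl, Cst7, Spp1, Gpnmb, Clec7a, Cd9, Igf1, Lyz2 and Lgals3, form the core of the disease-associated microglia (DAM) signature. They were taken as a named set, by symbol, from the 24940 genes of the deposited count table, and all 10 were found there. They were measured by poly(A) RNA-seq in sorted microglia and in bulk cortex, corpus callosum and striatum of male mice of 2 genotypes, called MSA and control. MSA mice are of the MBP29-hα-syn line, in which the myelin basic protein promoter drives human α-synuclein in oligodendrocytes, to model multiple system atrophy (MSA), a disease with α-synuclein deposits in these cells. Microglia came from forebrains of 16-week-old MSA and control mice with no diet arm, sorted as CD11b+CD45low events (3 libraries each). For the bulk tissue, MSA and control mice each received either chow with PLX5622 at 1200 mg/kg, an inhibitor of the receptor CSF1R on which microglia depend for survival, or standard AIN-76A chow, called placebo here. Feeding started at 4 weeks of age and lasted 12 weeks. Cortex had 3 libraries in each of the 4 groups. Corpus callosum had 2 each from MSA mice on PLX5622, MSA mice on placebo and control mice on PLX5622, and 3 from control mice on placebo. Striatum had 2 from MSA mice on PLX5622, 3 from MSA mice on placebo, and 2 each from control mice on PLX5622 and on placebo.

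DAM are a state that microglia take up around amyloid plaques, in demyelinated white matter and in other settings of brain damage. Cells in this state lose part of the homeostatic microglial programme and raise genes of phagocytosis, lysosomes and lipid handling, a shift that depends in part on the lipid-sensing receptor TREM2. Within the set, Apoe encodes the main lipid carrier of the brain and Lpl an enzyme that splits triglycerides from lipoproteins. Clec7a encodes dectin-1, a receptor for β-glucans on myeloid cells, and Cd9 a tetraspanin of the cell surface. Lyz2 encodes the lysozyme of macrophages and neutrophils, Cst7 cystatin F, an inhibitor of lysosomal cysteine proteases, and Lgals3 galectin-3, which binds β-galactosides and damaged lysosomes. Spp1 encodes osteopontin and Igf1 an insulin-like growth factor, both secreted, and Gpnmb a transmembrane glycoprotein linked to lysosomes. Several of the genes are not restricted to microglia. Astrocytes make most Apoe in the healthy brain, oligodendrocytes and astrocytes make Cd9, and some neurons make Lpl, Igf1 and Spp1.

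Clec7a, Lyz2 and Lgals3 were the members called in sorted MSA microglia. The 250 bases before their start sites are shown as the stretches in which binding sites of myeloid factors would be sought first. They are given 5′ to 3′ on the strand of the gene, from RefSeq on GRCm38.p6, which is mm10. Capitals mark GAGGAA, the core letters of sites bound by PU.1, a factor that sets myeloid identity. The stretches lie at chr6:129472780-129473029 (minus strand) for Clec7a, chr10:117282273-117282522 (minus strand) for Lyz2 and chr14:47373610-47373859 (plus strand) for Lgals3. Each ends at the base before the counted transcript, which spans chr6:129461591-129472779 for Clec7a, chr10:117277541-117282272 for Lyz2 and chr14:47373860-47386167 for Lgals3.
Clec7a: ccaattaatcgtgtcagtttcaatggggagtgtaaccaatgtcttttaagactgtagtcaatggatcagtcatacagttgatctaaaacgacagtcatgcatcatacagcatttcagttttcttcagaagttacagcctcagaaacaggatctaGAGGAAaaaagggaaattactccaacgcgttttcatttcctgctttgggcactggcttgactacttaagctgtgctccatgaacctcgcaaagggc
Lyz2: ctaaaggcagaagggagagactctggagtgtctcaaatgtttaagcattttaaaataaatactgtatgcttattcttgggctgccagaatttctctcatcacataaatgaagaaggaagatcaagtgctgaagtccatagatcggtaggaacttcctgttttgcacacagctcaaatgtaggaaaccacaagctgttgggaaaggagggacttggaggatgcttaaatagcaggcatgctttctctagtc
Lgals3: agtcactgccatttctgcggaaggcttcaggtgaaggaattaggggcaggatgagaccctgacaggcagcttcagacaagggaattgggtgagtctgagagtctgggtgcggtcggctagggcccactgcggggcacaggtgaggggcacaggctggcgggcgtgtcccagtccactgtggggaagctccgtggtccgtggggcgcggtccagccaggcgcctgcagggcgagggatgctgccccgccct
GAGGAA, read on both strands, occurred in 3 of the 8 member promoters that could be matched to the counted transcript (Clec7a, Apoe and Spp1; Lpl and Igf1 were not matched) and in 23.3% of 32851 mouse promoters of the same length. In Clec7a it began 96 bases before the start site, and in Spp1 113 bases before it. Of the 8 promoters, 0 held CACGTG (the E-box of MITF and TFE factors, present in 6.02% of all promoters), 0 held TCATGTG (an M-box core, 3.25%) and 0 held TGANTCA (an AP-1 site, 6.75%). All matches in the members were to 1 motif, so none overlapped another.

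Each library had between 4360339 and 28622744 counts assigned to genes, and levels below are counts scaled to a library total of 1e+06 (CPM). In 6 bulk libraries under 70% of the library's total was assigned to genes. Members were tested together with all other genes by edgeR's quasi-likelihood F test, and "called" means a Benjamini-Hochberg adjusted p under 0.05 over all genes tested. The labels do not say which libraries came from the same animal, and the p-values therefore cover library-to-library spread, which may be technical. The labels tag control microglia as MBP29_het and MSA microglia as MBP29_homo, while the protocol names wild-type mice. A further label gives the sort gate as CD11B+CD45+. The labels also tag both control striatum PLX5622 libraries as untreated, against their titles. In those libraries 12 homeostatic microglia genes summed to 37.6 and 52.6 CPM, against 460 and 501 CPM in control striatum on placebo. The sorted cells carried the markers of their label. P2ry12, Tmem119 and Cx3cr1, which mark resting microglia, stood at 4909 to 5457, 3358 to 3721 and 8046 to 8676 CPM in MSA microglia, and at 5174 to 5614, 3768 to 4169 and 8460 to 8990 CPM in control microglia.

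Which of the genes stood higher in microglia than in whole tissue of control mice was read from control microglia against control cortex on placebo. These microglia are tagged MBP29_het and had no diet arm. Clec7a, Cst7, Cd9, Lyz2 and Lgals3 were higher in sorted microglia, and Igf1 was lower. Apoe, Lpl and Spp1 had lower means in control microglia than in whole cortex and were not called. Of the 9 members tested, 5 were called higher and 1 lower. Over all 14318 genes tested 70.8% were called in either direction, so a call here was the rule for any gene. Clec7a, Cst7 and Lgals3 passed the low-count filter only through microglia libraries, so their place among the 5 was partly set by the filter. Igf1 passed it only with cortex libraries, which holds likewise for its place as the 1 lower. The median log2 difference was 2.50 over the 9 members and 6.94 over the 12 homeostatic genes, of which 12 were called higher. Among other DAM genes, the lysosomal genes Cd68, Ctsz and Ctsd and the MHC class I subunit B2m had the smallest p (log2 differences 6.46, 5.30, 5.10 and 4.94).

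Clec7a had 24.1, 24.9 and 17.9 CPM in control microglia, against 0.279, 0 and 0.154 CPM in control cortex. Its 601 counts in microglia against 3 in cortex gave a ratio of 154 (95% counting interval 52.5 to 750). Cd9 had 314, 432 and 391 CPM in control microglia, against 18.8, 28.1 and 41.9 CPM in control cortex (log2 difference 3.85 ± 0.28 SE, adjusted p = 4.48e-05). Both genes were higher in every microglia library than in any cortex library. Cst7 had 7.23, 5.26 and 3.47 CPM in control microglia, against 0.14, 0.259 and 0.308 CPM in control cortex (log2 difference 4.55 ± 0.60, adjusted p = 0.000177). Lyz2 averaged 93.5 ± 13.3 CPM in control microglia and 9.70 ± 8.77 CPM in control cortex (SD, n = 3 each; log2 difference 3.48 ± 0.55, adjusted p = 0.00145). Lgals3 averaged 3.44 ± 1.64 CPM in control microglia and 0.659 ± 0.527 CPM in control cortex (log2 difference 2.50 ± 0.70, adjusted p = 0.0132, and 0.0506 without control cortex placebo replicate 2).

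Apoe had 573, 996 and 722 CPM in control microglia, against 1620, 1102 and 791 CPM in control cortex, and the groups overlapped. Its log2 difference was -0.51 ± 0.38 (adjusted p = 0.27). Without control cortex placebo replicate 3, a library with under 70% assigned, it was -0.77 and called lower (adjusted p = 0.0233). Lpl had 17.3, 9.17 and 7.68 CPM in control microglia, against 25.0, 19.3 and 23.9 CPM in control cortex, lower in every microglia library but not called (log2 difference -0.87 ± 0.34, adjusted p = 0.0552). It was called without control microglia replicate 1 (adjusted p = 0.0143) or control cortex placebo replicate 3 (0.0356). Spp1 averaged 1.98 ± 0.874 CPM in control microglia and 3.99 ± 0.209 CPM in control cortex and was not called (log2 difference -0.84 ± 0.39, adjusted p = 0.0902). Igf1 averaged 1.77 ± 0.794 CPM in control microglia and 9.97 ± 2.30 CPM in control cortex, and was called lower (log2 difference -2.38 ± 0.41, adjusted p = 0.0018). Gpnmb had 2 counts over the 3 control microglia libraries, against 15 in control cortex, and was too low to be tested. Sorting, tissue and diet arm differ together in this comparison, and their effects cannot be told apart.

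Levels were compared between genes only per transcript length, in the authors' deposited TPM. In control microglia the order was Apoe (863 ± 244 TPM), Cd9 (457 ± 73.9), Lyz2 (127 ± 18.3), Clec7a (14.0 ± 2.37), Cst7 (7.76 ± 2.70), Lpl (4.03 ± 1.80), Lgals3 (3.52 ± 1.70), Spp1 (1.93 ± 0.863), Igf1 (0.335 ± 0.149) and Gpnmb (0.021 ± 0.0364; SD, n = 3). From Cst7 to Spp1, the ± SD ranges of neighbours in this order overlapped. In MSA microglia the first 4 places were the same, with Apoe at 2631 ± 115 TPM, Cd9 at 651 ± 19.6, Lyz2 at 255 ± 14.4 and Clec7a at 37.9 ± 5.6. Lpl (29.4 ± 5.61 TPM), Spp1 (18.0 ± 9.94), Lgals3 (15.7 ± 3.17) and Cst7 (12.2 ± 2.24) came next, and the ± SD ranges of neighbours overlapped all the way from Clec7a to Cst7, before Igf1 (1.11 ± 0.486) and Gpnmb (0.333 ± 0.129). In control cortex on placebo Apoe also led (1263 ± 587 TPM), ahead of Cd9 (31.97 ± 8.19), Lyz2 (11.2 ± 8.69), Lpl (7.46 ± 1.39) and Spp1 (3.60 ± 0.434), and Clec7a was last (0.0853 ± 0.0904).

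Between regions of control mice on placebo, 2 members were called between striatum and cortex and 0 between corpus callosum and cortex. Lpl was higher in striatum, with 82.8 and 139 CPM there, against 25.0, 19.3 and 23.9 CPM in cortex (log2 difference 2.27 ± 0.39, adjusted p = 0.000317). Igf1 was lower in striatum, with 3.16 and 1.24 CPM, against 9.91, 12.3 and 7.70 CPM in cortex (log2 difference -2.25 ± 0.38, adjusted p = 0.00038, and 0.0715 in a fit of these 2 groups alone). These were 2 of 10 members called, where 12.9% of 16080 genes were called. Lyz2 averaged 2.12 ± 1.14 CPM in striatum (n = 2) and 9.70 ± 8.77 CPM in cortex (n = 3) and was not called (log2 difference -2.16 ± 0.71, adjusted p = 0.0536, and 0.0152 without control cortex placebo replicate 1). In corpus callosum against cortex, where 2.94% of 16080 genes were called by edgeR, 0 of 10 members were called. Of these 4 had an unadjusted p under 0.05, and DESeq2 called 1, Cd9. Cd9 had 88.7, 57.7 and 66.8 CPM in corpus callosum, against 18.8, 28.1 and 41.9 CPM in cortex (log2 difference 1.15 ± 0.36, adjusted p = 0.0949 by edgeR, and 0.044 without control cortex placebo replicate 3). Among the wider DAM genes, Csf1 was called higher in corpus callosum (log2 difference 1.26, adjusted p = 0.0454) and Cadm1 lower in striatum (-0.88, 0.00832), each against cortex.

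The genotype comparison in sorted microglia showed which of the DAM core genes microglia of MSA mice carried at a higher level. Clec7a, Lyz2 and Lgals3 were called higher in MSA microglia, and all 9 members tested had a positive log2 change. Lpl, Spp1, Igf1 and Apoe had log2 changes of 1.57 to 3.10 that did not pass edgeR's test over all genes. DESeq2 called 8 of the 9 members higher, all but Cst7. Of 11810 genes tested, edgeR called 0.61%, 50 of them higher and 22 lower, that is 72, against 170 without control replicate 1 and 31 without control replicate 3. The median log2 change was 1.57 over the 9 members tested and 0.0051 over all genes tested. In 8 of the 9 members tested, every MSA library lay above every control library, which held for 12.4% of all genes tested. Igf1 passed the low-count filter only with MSA libraries, so its place among the 9 and the 8 was partly set by the filter.

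Clec7a, the β-glucan receptor, had 55.5, 70.8 and 54.9 CPM in MSA microglia, against 24.1, 24.9 and 17.9 CPM in control microglia. All MSA libraries lay far above all control libraries, and the log2 change was 1.41 ± 0.15 (adjusted p = 0.00311). Lyz2, the macrophage lysozyme, had 180.1, 199.9 and 183 CPM in MSA microglia, against 85.2, 109 and 86.5 CPM in control microglia (log2 change 0.96 ± 0.09, adjusted p = 0.00107). The groups were well apart for both genes, and both kept their call whichever library was left out. Lgals3, the galectin, had 12.5, 15.2 and 18.7 CPM in MSA microglia, against 1.61, 3.91 and 4.79 CPM in control microglia (log2 change 2.06 ± 0.32, adjusted p = 0.0276). Its groups did not overlap either, but the call was lost without control replicate 2 (adjusted p = 0.143), MSA replicate 2 (0.126) or MSA replicate 3 (0.102). Of 50-base windows of the Lyz2 transcript, 15.4% also occur in its near-copy Lyz1, which reached at most 0.33 CPM in any library.

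Both lipid genes missed the threshold by a narrow margin. Apoe had 2309.6, 2452 and 2250.5 CPM in MSA microglia, against 573, 996 and 722 CPM in control microglia (log2 change 1.57 ± 0.20, adjusted p = 0.0593). Lpl had 96.6, 87.4 and 65.7 CPM in MSA microglia, against 17.3, 9.17 and 7.68 CPM in control microglia (log2 change 2.87 ± 0.35, adjusted p = 0.0593). For both genes the MSA libraries lay above all control libraries. Apoe was called without control replicate 1 (adjusted p = 0.00414) or control replicate 2 (0.000145), and Lpl without control replicate 1 (0.00129).

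Among the secreted and surface proteins, Spp1 had 9.14, 17.1 and 29.4 CPM in MSA microglia, against 1.61, 1.35 and 2.97 CPM in control microglia (log2 change 3.10 ± 0.56, adjusted p = 0.102). This was the largest log2 change among the members tested, and the MSA libraries also spread widely among themselves. Spp1 was called without MSA replicate 1 (adjusted p = 0.00959) or MSA replicate 3 (0.0369). Igf1 had 7.75, 2.94 and 6.89 CPM in MSA microglia, against 2.68, 1.22 and 1.40 CPM in control microglia (log2 change 1.69 ± 0.44, adjusted p = 0.155). Cd9 had 550.1, 523 and 551 CPM in MSA microglia, against 314, 432 and 391 CPM in control microglia (log2 change 0.47 ± 0.10, adjusted p = 0.108, and 0.0485 without control replicate 1). The groups were apart for both genes, by a narrow margin for Igf1. Gpnmb had 19 counts over the MSA libraries and 2 over the control libraries, a ratio of 12.0 (95% counting interval 2.89 to 106), and was too low to be tested. Cst7, the lysosomal protease inhibitor, had 7.06, 8.04 and 10.1 CPM in MSA microglia, against 7.23, 5.26 and 3.47 CPM in control microglia. It was the 1 member whose groups overlapped (log2 change 0.63 ± 0.27, adjusted p = 0.441).

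Of the 12 homeostatic genes, which DAM lose in other models, 0 were called by edgeR, with 4 at an unadjusted p under 0.05 and a median log2 change of -0.13. All 12 had a negative log2 change under TMM scaling. DESeq2 called 1 lower, Selplg (adjusted p = 0.0295), named here after its value was seen. Log2 changes by edgeR were -0.10 for P2ry12 (adjusted p = 0.602), -0.20 for Tmem119 (0.322) and -0.11 for Cx3cr1 (0.552). Fcrls, also chosen after its value was seen, averaged 746 CPM in MSA microglia and 1548 CPM in control microglia. It was called by neither edgeR nor DESeq2. Of the 28 other DAM genes tested, 3 were called higher. Axl, a receptor for dying cells, averaged 133.5 CPM in MSA microglia and 21.2 CPM in control microglia (log2 change 2.61, adjusted p = 0.000472). Cybb, a subunit of the phagocyte oxidase, and Itgax, the integrin CD11c, had log2 changes of 1.34 and 1.24 (adjusted p = 0.00265 and 0.0123).

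Markers of other cells were low but not level in the sorted libraries. The 5 oligodendrocyte precursor genes summed to 11.8 to 12.5 CPM in MSA microglia and 0.978 to 2.28 CPM in control microglia. Cspg4 alone carried this difference, with a mean of 10.51 CPM in MSA microglia and 0.381 CPM in control microglia, while the other 4 genes, Pdgfra among them, averaged under 1 CPM in both. The 8 choroid plexus genes, with 0 of them at 0, summed to 846 to 1610 CPM in MSA microglia and 521 to 1182 CPM in control microglia. The 8 monocyte and neutrophil genes summed to 48.9 to 83.6 CPM in MSA microglia and 31.1 to 71.7 CPM in control microglia. The 8 genes of border macrophages summed to 745 to 933 CPM in MSA microglia and 875 to 920 CPM in control microglia. Stab1 held most of this sum, with means of 769.4 CPM in MSA microglia and 823.5 CPM in control microglia. Lyve1 also had a lower mean in MSA microglia (5.336 CPM, against 5.58 CPM in control microglia). Mrc1 averaged 48.2 CPM in MSA microglia and 32.68 CPM in control microglia, and Cd163 12.91 and 9.016 CPM. F13a1, Pf4, Cbr2 and Ms4a7 also had higher means in MSA microglia. The part of these other cells in the members' changes was not tested.

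In bulk corpus callosum of mice on placebo, 9 of the 10 members had a positive log2 change in MSA mice and 0 were called. In bulk tissue, here and in the diet comparisons below, a change in the number of cells of a type and in RNA per cell cannot be told apart. In all 9 of these genes every MSA library lay above every control library, which held for 17.2% of the 15881 genes tested, and Igf1 was the exception. Cst7 passed the low-count filter in corpus callosum only through MSA libraries, so its place among the 9 was partly set by the filter. By edgeR 0.321% of all genes were called. Of the members 7 had an unadjusted p under 0.05, and DESeq2 called 3 (Clec7a, Lgals3 and Gpnmb). The median log2 change was 1.35 over the members and 0.0052 over all genes.

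Clec7a had 13.3 and 6.09 CPM in MSA corpus callosum, against 2.16, 0.41 and 1.15 CPM in control corpus callosum (log2 change 2.98 ± 0.61, adjusted p = 0.104). Lgals3 had 17.6 and 10.4 CPM in MSA corpus callosum, against 3.57, 0.957 and 1.84 CPM in control corpus callosum (log2 change 2.75 ± 0.59, adjusted p = 0.129). In both genes the lower MSA library was more than 2 times the highest control library. In a fit of these 2 groups alone, Clec7a (adjusted p = 0.017) and Lgals3 (0.00888) were called higher. Gpnmb had 5.31 and 3.70 CPM in MSA corpus callosum, against 1.30, 0.547 and 0.552 CPM in control corpus callosum (log2 change 2.54 ± 0.63, adjusted p = 0.207). Cst7 had 0.908 and 1.96 CPM in MSA corpus callosum, against 0.108, 0.137 and 0.276 CPM in control corpus callosum (log2 change 2.80 ± 1.08, adjusted p = 0.475). Lyz2 had 28.2 and 16.8 CPM in MSA corpus callosum, against 4.21, 5.47 and 12.4 CPM in control corpus callosum (log2 change 1.62 ± 0.54, adjusted p = 0.4). It was called when libraries under 70% assigned were left out (adjusted p = 0.0184).

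The remaining 5 members had smaller log2 changes than these 5. Apoe had 2687 and 2233 CPM in MSA corpus callosum, against 1571, 1094 and 947 CPM in control corpus callosum (log2 change 1.05 ± 0.50, adjusted p = 0.594). Log2 changes of Lpl, Spp1 and Cd9 were 1.07, 0.95 and 0.92 (adjusted p = 0.503, 0.612 and 0.458). Igf1 had 8.14 and 7.18 CPM in MSA corpus callosum, against 8.75, 9.71 and 11.1 CPM in control corpus callosum, each MSA library below each control library (log2 change -0.34 ± 0.29, adjusted p = 0.748). Beside these values, the 8 choroid plexus genes summed to 3188 to 8214 CPM in MSA corpus callosum and 253 to 347 CPM in control corpus callosum, with 0 of them at 0. The 5 fibroblast genes summed to 168 to 309 CPM in MSA corpus callosum and 41.4 to 53.2 CPM in control corpus callosum, with 0 of them at 0. Igfbp2 held most of this difference, with means of 198.3 CPM in MSA corpus callosum and 26.03 CPM in control corpus callosum. Col1a1, Col1a2, Dcn and Lum also had higher means in MSA corpus callosum, but at most 14.11 CPM, against at most 8.959 CPM in control corpus callosum. The 12 homeostatic genes summed to 634 to 751 CPM in MSA corpus callosum and 500.1 to 606 CPM in control corpus callosum. The 8 genes of border macrophages summed to 16.1 to 24.8 CPM in MSA corpus callosum and 20.5 to 21.5 CPM in control corpus callosum. The 8 astrocyte genes summed to 7425 to 9270 CPM in MSA corpus callosum and 5964 to 6534 CPM in control corpus callosum. The 8 oligodendrocyte genes summed to 14522 to 20057 CPM in MSA corpus callosum and 16524 to 30767 CPM in control corpus callosum. The part of these cells in the members' changes was not tested.

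In striatum of mice on placebo, Clec7a, Lgals3 and Lyz2 had the largest log2 changes of the 9 members tested, and 0 of 9 members tested were called. edgeR called 0.0336% of 14872 genes, 3 members had an unadjusted p under 0.05, and DESeq2 called 0 members. Clec7a had 5.04, 1.76 and 0.81 CPM in MSA striatum, against 0.395 and 0.178 CPM in control striatum (log2 change 3.14 ± 1.09, adjusted p = 0.999). Lyz2 had 14.5, 6.08 and 6.21 CPM in MSA striatum, against 1.32 and 2.93 CPM in control striatum (log2 change 2.04 ± 0.55, adjusted p = 0.822). Lgals3 had 3.90, 1.44 and 4.32 CPM in MSA striatum, against 0.395 and 1.07 CPM in control striatum (log2 change 2.07 ± 0.70, adjusted p = 0.999). The groups did not overlap in these 3 genes, nor in Apoe, Gpnmb and Cd9, that is in 6 of 9 members, where 8.12% of all genes had every MSA library above every control library. Clec7a, Gpnmb and Lyz2 passed the low-count filter in striatum only with MSA libraries, so their place among the 6 was partly set by the filter. Lpl had 54.3, 56.2 and 103 CPM in MSA striatum, against 82.8 and 139 CPM in control striatum (log2 change -0.64 ± 0.36, adjusted p = 0.999). Choroid plexus genes summed to 67.6 to 3873 CPM in MSA striatum and 86.4 to 156 CPM in control striatum, and their part was not tested.

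In cortex of mice on placebo, edgeR called 0% of 14600 genes, with 514 at an unadjusted p under 0.05 and 3 called by DESeq2. Of the 7 members tested 0 were called, 0 had an unadjusted p under 0.05, and DESeq2 called 0. Apoe averaged 1615 ± 117 CPM in MSA cortex and 1171 ± 419 CPM in control cortex (SD, n = 3 each; log2 change 0.47 ± 0.35, adjusted p = 0.828). Lyz2 averaged 9.71 CPM in MSA cortex and 9.70 CPM in control cortex (log2 change 0.04 ± 0.61, adjusted p = 0.991). Clec7a had 47 counts in MSA cortex and 3 in control cortex, a ratio of 16.6 (95% counting interval 5.34 to 83.4), but 43 of the 47 came from 1 library.

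In control mice on PLX5622 most homeostatic microglial genes fell, with 11 of 12 called lower in cortex, 11 in corpus callosum and 10 in striatum, and of the members Lyz2 was left at the lowest share of its placebo level in each region. In control mice the 12 homeostatic genes kept 7.12% of their placebo level in cortex, 11.3% in corpus callosum and 9.39% in striatum. Lyz2 kept 11.2%, 9.99% and 9.97% in the same regions, while Apoe kept 84.4%, 79.8% and 96.1% and Cd9 69.1%, 84.7% and 87.5%. Igf1 kept 95.8%, 122% and 105% and Lpl 109%, 138% and 111%. Apoe, Cd9, Igf1 and Lpl were thus at 69.1% of placebo or above in tissue with few microglial transcripts left. Lgals3 was at 52.3%, 145% and 231%, on means of at most 3.08 CPM. The 8 genes of border macrophages, which also make Lyz2, kept 14.4%, 22.4% and 57.5% in control mice, with Mrc1 at 0 in all 3 regions on PLX5622. In control striatum Cd163 held most of what was left, with means of 14.53 CPM on PLX5622 and 12.88 CPM on placebo. Stab1 averaged 2.16 and 13.85 CPM there, and F13a1, Cbr2 and Ms4a7 were at 0 on PLX5622. The part of border macrophages in the values of Lyz2 was not tested.

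By edgeR, 0 members were called for diet in control mice: cortex had 0 of 7 (0.486% of all genes called), corpus callosum 0 of 10 (0.46%) and striatum 0 of 9 (0.336%). At an unadjusted p under 0.05 there were 1, 2 and 2 members, and DESeq2 called 1, 1 and 0, in each case Lyz2. Lyz2 had 1.38, 0.296 and 1.60 CPM in control cortex on PLX5622, against 2.79, 6.73 and 19.6 CPM on placebo (log2 change -3.10 ± 0.73, adjusted p = 0.127, and 0.0194 without control cortex placebo replicate 1). In corpus callosum of control mice it had 0.304 and 1.17 CPM on PLX5622, against 4.21, 5.47 and 12.4 CPM on placebo (log2 change -3.46 ± 0.71, adjusted p = 0.107, and 0.0185 with libraries under 70% assigned left out). In control striatum it had 0.104 and 0.319 CPM on PLX5622, against 1.32 and 2.93 CPM on placebo (log2 change -3.24 ± 0.94, adjusted p = 0.287). All PLX5622 libraries lay below all placebo libraries in each region. Beside the values of corpus callosum, choroid plexus genes summed to 1386 to 1490 CPM in control mice on PLX5622 and 253 to 347 CPM in control mice on placebo, and their part was not tested. Clec7a in control corpus callosum had 0.152 and 0.35 CPM on PLX5622, against 2.16, 0.41 and 1.15 CPM on placebo (log2 change -2.37 ± 0.89, adjusted p = 0.904). Spp1 in control striatum had 2.30 and 0.957 CPM on PLX5622, against 9.09 and 3.99 CPM on placebo (log2 change -1.95 ± 0.56, adjusted p = 0.556), while in control corpus callosum its mean on PLX5622 was 127% of placebo. Of the other DAM genes, 4 fell in control cortex (26 tested), 4 in corpus callosum (30 tested) and 2 in striatum (27 tested), among them Trem2 and Tyrobp in all 3 regions. Trem2 averaged 0.633 CPM in cortex, 0.38 CPM in corpus callosum and 0.104 CPM in striatum of control mice on PLX5622, against 17.0, 16.3 and 14.0 CPM on placebo. Tyrobp averaged 0.0765, 0.304 and 0.0522 CPM on PLX5622, against 25.5, 23.8 and 9.499 CPM on placebo. The other called genes were Ccl6 and Cd84, in cortex and corpus callosum, with Cd84 at 0 in control cortex on PLX5622.

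In MSA mice the homeostatic genes kept a larger share on PLX5622, 25.8% of their placebo level in cortex, 28.8% in corpus callosum and 24.7% in striatum. The test of that difference, the genotype by diet interaction, called 7, 3 and 5 of the 12 in these regions. Lyz2 kept 58.8%, 55.8% and 69.1%, Clec7a 65.7%, 72.6% and 98.8%, and Lgals3 107%, 57.9% and 173%. Apoe kept 99.0%, 60.3% and 87.2%. The genes of border macrophages kept 13.3%, 36.5% and 55.4%, with Mrc1 at 0 in all 3 regions of MSA mice on PLX5622. In MSA striatum Cd163 averaged 12.37 CPM on PLX5622 and 10.74 CPM on placebo, and Stab1 2.328 and 13.63 CPM. By edgeR no member was called for diet in MSA mice, with 0 of 7 in cortex (0.0548% of all genes), 0 of 10 for corpus callosum (0.0693%) and 0 of 9 for striatum (0.074%). The striatum share is 11 genes, against 824 without MSA striatum placebo replicate 1, where again 0 members were called. At an unadjusted p under 0.05 there were 1, 1 and 0, and DESeq2 called 0 in each. Spp1 had 7.54, 5.37 and 7.97 CPM in MSA cortex on PLX5622, against 3.80, 2.21 and 3.75 CPM on placebo, with no overlap (log2 change 1.04 ± 0.38, adjusted p = 0.921). Igf1 had 13.5 and 13.7 CPM in MSA corpus callosum on PLX5622, against 8.14 and 7.18 CPM on placebo, also with no overlap (log2 change 0.71 ± 0.31, adjusted p = 0.582). Beside the values of corpus callosum, choroid plexus genes summed to 410 to 461 CPM in MSA mice on PLX5622 and 3188 to 8214 CPM in MSA mice on placebo, and their part was not tested.

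Among mice on PLX5622, Lyz2 was higher in every MSA library than in any control library in all 3 regions, and it was called in 1 of them. In striatum 1 of 9 members, Lyz2, was called higher, where 0.222% of all genes were called. Lyz2, Clec7a and Gpnmb passed the low-count filter in striatum only with MSA libraries, so their being tested there was partly set by their level in MSA mice. Lyz2 had 7.73 and 4.61 CPM in MSA striatum on PLX5622, against 0.104 and 0.319 CPM in control striatum on PLX5622 (log2 change 4.76 ± 0.92, adjusted p = 0.0324). The groups were far apart, but the call was lost without any 1 of the 4 libraries (adjusted p = 0.359 without control replicate 1, 0.224 without control replicate 2, 0.232 without MSA replicate 2 and 0.0825 without MSA replicate 3). Clec7a had 34 counts in MSA striatum and 1 in control striatum, a ratio of 51.4 (95% counting interval 8.63 to 2090), and Gpnmb 24 and 2 counts, a ratio of 18.2 (4.51 to 159). The groups overlapped for Gpnmb, at 0.193 and 3.12 CPM in MSA striatum and 0 and 0.213 CPM in control striatum, so 1 MSA library held most of its counts. Lgals3 had 3.28 and 7.87 CPM in MSA striatum on PLX5622, against 1.67 and 1.70 CPM in control striatum on PLX5622 (log2 change 1.74 ± 0.68, adjusted p = 0.44).

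In corpus callosum on PLX5622, where edgeR called 0.195% of all genes, 0 of 10 members were called, 2 had an unadjusted p under 0.05, and DESeq2 called 2. Both counts were of Clec7a and Lyz2. Clec7a had 6.18 and 7.87 CPM in MSA corpus callosum, against 0.152 and 0.35 CPM in control corpus callosum (log2 change 4.76 ± 0.90, adjusted p = 0.0678). Lyz2 had 8.48 and 16.6 CPM in MSA corpus callosum, against 0.304 and 1.17 CPM in control corpus callosum (log2 change 4.12 ± 0.75, adjusted p = 0.0781, and 0.0466 without control replicate 2). The groups did not overlap in either gene, and all 10 members had a positive log2 change. Cst7 was among the 10 only through MSA libraries that passed the low-count filter. In cortex on PLX5622, where 0.151% of all genes were called, 0 of 7 members were called, with 2 at an unadjusted p under 0.05 and 0 called by DESeq2. Lyz2 had 5.03, 8.23 and 3.88 CPM in MSA cortex on PLX5622, against 1.38, 0.296 and 1.60 CPM in control cortex on PLX5622 (log2 change 2.30 ± 0.74, adjusted p = 1). Clec7a had 29 counts in MSA cortex on PLX5622 and 3 in control cortex on PLX5622, a ratio of 8.30 (95% counting interval 2.57 to 42.6). Its groups overlapped, at 0.358 to 2.51 CPM in MSA cortex and 0 to 0.688 CPM in control cortex. Beside these values, 7 of the 12 homeostatic genes were called higher in MSA mice in each region, with median log2 changes of 3.94 in cortex, 3.37 in corpus callosum and 5.10 in striatum. Tyrobp, the signalling adaptor of TREM2, and Trem2 were called higher in corpus callosum and striatum, and Ccl6 in corpus callosum. In corpus callosum Tyrobp averaged 25.7 CPM in MSA mice on PLX5622 and 0.304 CPM in control mice on PLX5622, Trem2 10.9 and 0.38 CPM, and Ccl6 5.57 and 0.076 CPM in these groups. In corpus callosum, choroid plexus genes summed to 410 to 461 CPM in MSA mice on PLX5622 and 1386 to 1490 CPM in control mice on PLX5622, and their part was not tested.

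Whether the response to diet differed between genotypes was tested as an interaction. By edgeR no member was called: cortex had 0 of 7 (0.0959% of all genes), corpus callosum 0 of 10 (0.264%) and striatum 0 of 9 (0.0874%). Unadjusted p-values under 0.05 were found for 2, 1 and 1 members, and DESeq2 called 0 in each region. The interaction of Lyz2 was 2.26 ± 0.96 on the log2 scale in cortex (adjusted p = 0.912), 2.50 ± 0.92 in corpus callosum (0.924) and 2.72 ± 1.07 in striatum (0.802). Trem2 in striatum (adjusted p = 0.0385) and Tyrobp and Ccl6 in corpus callosum (0.0197 and 0.0205) were called, outside the core set. The corpus callosum share is 42 genes, against 384 without control corpus callosum PLX5622 replicate 2, where again 0 members were called.

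Across the 30 bulk libraries the members did not move as 1 block. Pearson's r of log2 CPM, centred within region, was highest between Apoe and Lgals3 (0.673), Clec7a and Lyz2 (0.666), Clec7a and Cd9 (0.641) and Gpnmb and Clec7a (0.606). It was lowest between Lpl and Igf1 (-0.384). Among 12303 genes, the ones most like Lyz2 were Tyrobp (r = 0.877) and Fcgr3 (0.861). Those most like Apoe were Cpe (0.895) and Gprc5b (0.891), and those most like Cd9 were Tspan15 (0.909) and Chil1 (0.862). For Lpl these were Strip2 (0.703) and Pou3f4 (0.691), for Igf1 Katnal1 (0.717), and for Spp1 Gorasp1 (0.672) and Slc17a6 (0.652). These correlations describe libraries that share genotype, diet and depth, and carry no test. Cst7, Gpnmb, Clec7a and Lgals3 averaged under 5 CPM in bulk tissue and were not ranked in this way. The members passed the filter on low counts in unequal measure, with Cst7 tested in 9, Clec7a and Lgals3 in 14, Gpnmb in 17 and the other 6 in all 19 comparisons.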

How the data were processed

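Gene counts for 36 libraries were deposited by the authors as raw whole numbers per gene, unnormalized, in a HOMER table on mm10, per the file headers. TPM values were deposited by the authors in a second table and were used only to order genes. STAR, HOMER and DESeq2 are named in the submitters' processing notes, and neither their versions nor the strand setting is given in the sources used here. Groups came from the titles. CPM divides by the counts assigned to genes, which came to 4360339 to 28622744 per library and 59.52% to 84.47% of the header total. Counting intervals (95%, exact) cover counting error only.

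Tests used edgeR 4.0.16 in R 4.3.3 (TMM scaling, filterByExpr with a minimum count of 10, robust quasi-likelihood F test, Benjamini-Hochberg adjustment over all genes). Each region was fitted with its 4 groups, microglia alone, microglia with control cortex on placebo, and regions over all 30 bulk libraries. The procedure was tested on simulated data. The alternatives were DESeq2 1.42.0, other size factors, no filter, a replicate block, 2-group fits, leaving out each library, and leaving out 6 libraries under 70% assigned, the last chosen after seeing the data. All members were described, other DAM genes were named where called (at most 4 per comparison, by p), and motifs and lists, like the members, were chosen with earlier results of these data known. Some results are not reported here.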

Additional observations from a re-analysis of the deposited data

How the results depend on the processing

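Of 1891 values of single members under the alternatives, 0 turned round in direction among called ones, 10 lost their call and 48 gained one. The count of members called moved with DESeq2, to 1 for diet in control cortex (main count 0), 1 for diet in control corpus callosum (0), 3 for genotype in corpus callosum on placebo (0), 2 for genotype in corpus callosum on PLX5622 (0), 8 for genotype in microglia (3) and 1 for corpus callosum against cortex (0). With no low-count filter it was 1, 2 and 2 for those 3 corpus callosum comparisons and 5 in microglia. With libraries under 70% assigned left out it was 1, 1 and 1 for those corpus callosum comparisons and 0 for genotype in striatum on PLX5622 (1). With only the 2 groups compared it was 2 for genotype in corpus callosum on placebo and 1 for striatum against cortex (2). Leaving out 1 library gave 0 to 1 for diet in control cortex, 0 to 1 for genotype in corpus callosum on PLX5622, 0 to 0 for genotype in striatum on PLX5622, 2 to 6 in microglia, 5 to 8 for microglia against cortex, 0 to 1 for corpus callosum against cortex and 2 to 3 for striatum against cortex. The cause was not tested.

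Whether replicate numbers pair the samples cannot be read from these data. Within regions, correlations of same-numbered libraries of different groups ran between -0.616 and 0.513, and those of other pairs between -0.498 and 0.584. In striatum the medians were 0.104 for 10 same-numbered pairs and -0.0535 for 20 others. Deviations in groups of 2 libraries mirror each other, and libraries of different regions were not compared. With the replicate block 2 members were called for genotype in striatum on PLX5622 and 5 in microglia, and the block moved no other count of members by more than 1.5 times. Counts of all genes called were higher with DESeq2 in most comparisons, such as 174 against 72 in microglia, 232 against 51 for genotype in corpus callosum on placebo and 128 against 71 for diet in control cortex. Leaving out 1 library also moved the counts of all genes called, given here with the count from all libraries in brackets. In cortex they ran from 38 to 64 for diet in control mice (71) and from 0 to 6 for diet in MSA mice (8). In corpus callosum they were 31 to 93 for diet in control mice (73), 0 to 12 for diet in MSA mice (11), 7 to 54 for genotype on placebo (51), 17 to 72 for genotype on PLX5622 (31) and 20 to 384 for the interaction (42). In striatum they were 29 to 46 (50), 0 to 824 (11), 2 to 9 (5), 15 to 19 (33) and 2 to 21 (13) for the same 5 comparisons. They were 31 to 170 in microglia (72), 231 to 534 for corpus callosum against cortex (473) and 753 to 2388 for striatum against cortex (2077). In corpus callosum and striatum most groups hold 2 libraries, and Cst7, Gpnmb, Clec7a and Lgals3 rest on few counts in bulk tissue, so differences in them were often not detectable at this depth.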
